A study of Ovis aries with 36 samples.

Results

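The first 37 of the 25197 Ensembl gene ids in the deposited tables, ENSOARG00000000001 to ENSOARG00000000037, form a block that is presumed to be the mitochondrial genome of the sheep. The rule takes the members by id and not by value. They are called id 1 to id 37 here. The identity of the block is presumed because no file pairs these ids with gene names: 0 of the 25197 ids matched a name.

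Total RNA of the infraspinatus, a rotator cuff muscle of the shoulder, was sequenced in 9 female Swiss Alpine sheep that were 2 years old at the start. In every animal the infraspinatus tendon was released, and it was reattached to the bone 16 weeks later. Each animal gave 4 libraries. The operated muscle was sampled before release (PRE), at repair (TR) and 6 weeks after repair (END), and the muscle of the unoperated side together with END (END-CC). The 3 arms held 3 animals each. CONTROL animals (2901, 2902 and 2903) received no drug. N22W animals (2913, 2914 and 2915) had weekly injections of 150 mg nandrolone decanoate, an anabolic steroid in ester form, for 22 weeks from release on. N6W animals (2907, 2908 and 2909) had 150 mg weekly for the 6 weeks after repair, so their PRE and TR biopsies are drug-free. END and END-CC of one animal share its drug exposure, and every animal was operated.

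The mitochondrial genome of mammals is a small circle that is transcribed from both strands as long precursors. Transfer RNAs lie between most of the other genes, and cutting them out frees the ribosomal RNAs of the mitochondrial ribosome and the messenger RNAs. The messenger RNAs code for subunits of the respiratory chain and of ATP synthase, and in muscle they are among the most abundant transcripts. The RefSeq table for the sheep (assembly ARS-UI_Ramb_v3.0) lists 37 mitochondrial genes, of which 22 are tRNA genes, 2 are rRNA genes and 13 code for proteins. That assembly differs from the one named for these files (Oar_v3.1), so no position is given. No table holds a sequence for these ids, and no id was named from its place in the order.

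The deposited values are reads per gene divided by 1 factor per library, called normalized reads below. They are per gene and not per length. Reads recovered from them summed to 11879715 to 43066338 per library. The factors fall into 2 sets that had been scaled apart, each with a geometric mean near 1. One set holds 12 libraries, those of CONTROL and N22W at PRE and TR. The other holds the remaining 24: all END and END-CC libraries and the 12 libraries of N6W, PRE and TR included. Levels were compared only within a set. Ids of other cell types or of muscle could not be looked up, so neither the tissue label nor its cell makeup was checked on markers.

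As a check of the presumption, each id was set beside the class of the reference gene at the same place. In 12 of 12 libraries of the 12-library set, all 15 places with an rRNA or protein gene lay above all 22 tRNA places. The lowest median among the 15 was 722.65 normalized reads (id 33), and the highest among the 22 was 204.75 (id 18). In the other 24 libraries this order did not hold. There id 37, at a tRNA place, had a median of 98.1. Id 4, at an rRNA place, had 29.6, and ids 19 and 23, at protein places, had 7.997 and 6.67. Gene length was not accounted for in this order, since no length is paired with these ids. The ids just beyond the block did not continue the order: ENSOARG00000000038 had a median of 818 over the 36 libraries (530 to 1170), and ENSOARG00000000039 was listed at 0 in all 36. The most abundant member, ENSOARG00000000016 (id 16), ranked 5 of all 25197 ids by its median in the 12-library set and 12 in the other.

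Deviations from the group mean were also shared within the block. Between pairs of members the median correlation of these deviations was 0.40 in the 12-library set (37 members), 0.65 among the 15 rRNA and protein places and 0.38 among the 22 tRNA places. The corresponding median between members and all other ids was 0.01. In the 24-library set, where 15 members had values to compare, the medians were 0.51 between members and −0.04 with other ids. There the order of the classes was the other way, with 0.45 among 10 rRNA and protein places and 0.55 among 5 tRNA places. The libraries share animals and 1 factor each, so these are descriptions of the block and carry no test. Id 34 and id 8 were the members that followed the others least in the 12-library set, with mean correlations of 0.04 and 0.08, and id 23 followed them most, at 0.56.

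The block did not look the same in the 2 sets. In the 24-library set 27 of the 37 members were at 0 or far below their level in the 12-library set, with medians of at most 0.0849% of those there. Of these, 19 had no read in any of the 24 libraries, and 17 of the 19 were at tRNA places. A count of 0 allows up to 3 reads, which corresponds to 1.53 to 4.85 normalized reads in these libraries and covers counting error only. The other 10 members (ids 16, 17, 22 and 31 to 37) had medians of at least 8.71% of those in the 12-library set. They had values in all 36 libraries, and so did ids 2, 4, 19 and 23 of the 27.

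The largest members show the size of this split. Id 4, at an rRNA place, ran from 218100 to 851100 in the 12-library set with a median of 478850, and from 18.6 to 70.4 in the other with a median of 29.6. Its share of the block was the most variable of all members with a median of at least 10, with an SD of 5.10 on the log2 scale over the 36 libraries. Id 2, at the other rRNA place, had medians of 64970 and 55.1. Depletion of ribosomal RNA used human probes, so values at these 2 places count what depletion left.

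Members at protein places were split as well. Id 19 had a median of 108850 in the 12-library set and of 7.997 in the other, and id 23 had medians of 45385 and 6.67. Ids 10 and 27, with medians of 9490 and 3022 in the 12-library set, had no read in the other. Id 16 was present in both, with medians of 623450 and 134900. Id 35 had medians of 10651 and 12540, id 32 of 3971 and 2652, id 33 of 723 and 634, and id 22 of 17350 and 1511.

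A factor that is the same for every id of a library leaves ratios within the library as they are, and these ratios differed too. Id 19 stood at 0.166 to 0.199 of id 16 in the 12-library set and at 1.63e-05 to 0.000154 of it in the other. Id 35 stood at 0.0133 to 0.0350 of id 16 in the 12-library set and at 0.0788 to 0.141 in the other. The split went with the set and not with the time point, as far as N6W shows it: the PRE libraries of N6W had 8.99, 11.7 and 9.69 normalized reads of id 19, against 101500 to 164700 in PRE of the other arms. Between PRE or TR and END of CONTROL and N22W, the set and the time point cannot be told apart.

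**Figure D1:**
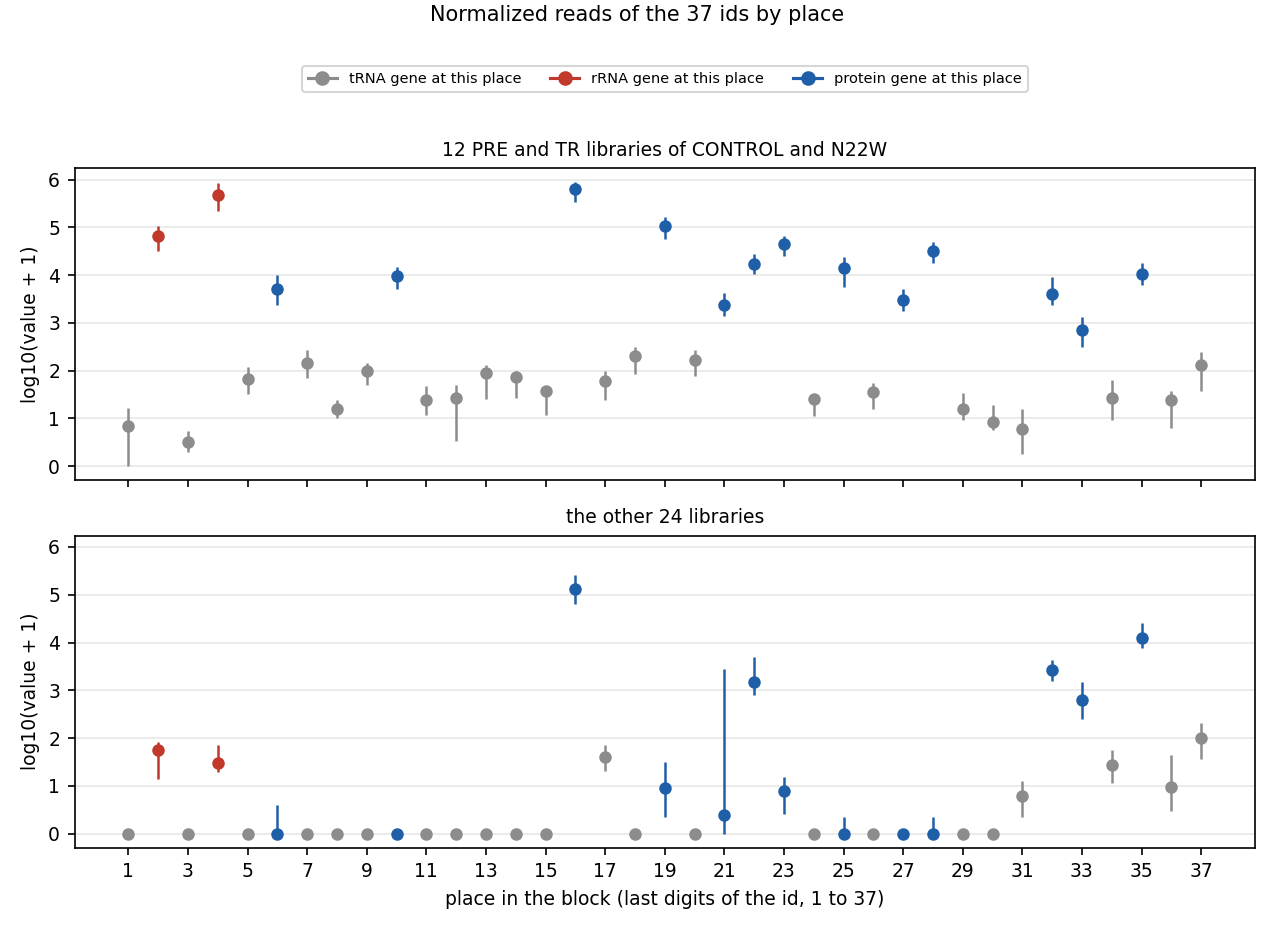
Normalized reads of the 37 ids, as log10(value + 1), by place in the block (the last digits of the id). Points are medians and lines run from the lowest to the highest library, in the 12 CONTROL and N22W libraries of PRE and TR (top) and in the other 24 (bottom). Colours give the class of the reference gene at that place. In the top panel the 15 rRNA and protein places lie above the 22 tRNA places. In the bottom panel 27 members have medians of at most 0.0849% of those in the top panel.

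The split was not particular to the block. Over all ids, 529 were more than 8-fold higher in every library of the 12-library set than in any of the other, and 22 of these were members. No id showed the reverse by that rule. The 529 ids together took 8.34 to 12.8% of the summed values in the 12-library set, of which the members made up 14.1 to 33.8%. Annotation and counting step are not stated in these sources, and whether they differed between the sets was not tested.

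Within the 24-library set, animal 2907 of N6W stood apart at one member. Id 21, at a protein place, had 1967 normalized reads at PRE, 2658 at TR, 1930 at END and 2841 at END-CC in that animal. In the other 20 libraries of the set it had at most 7.43. The level in 2907 was within the range of the 12-library set, where id 21 ran from 1402 to 4201. Id 21 was the only one of the 25197 ids that was more than 8-fold higher in every library of 2907 than in every other library of the set. Over the other 8 animals, 3 ids in all stood apart in this way, 1 each in 2901, 2902 and 2913, and none was a member.

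Its neighbour id 22, also at a protein place, was higher in the same animal, at 3407, 4719, 3413 and 4977 in PRE, TR, END and END-CC. The other 20 libraries ran from 779 to 2100. Both ids were therefore high in all 4 biopsies of 2907, on the operated and the unoperated side, before and during the drug. Neighbouring genes of the mitochondrial genome can overlap, so how reads were divided between the 2 ids is uncertain.

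**Figure D2:**
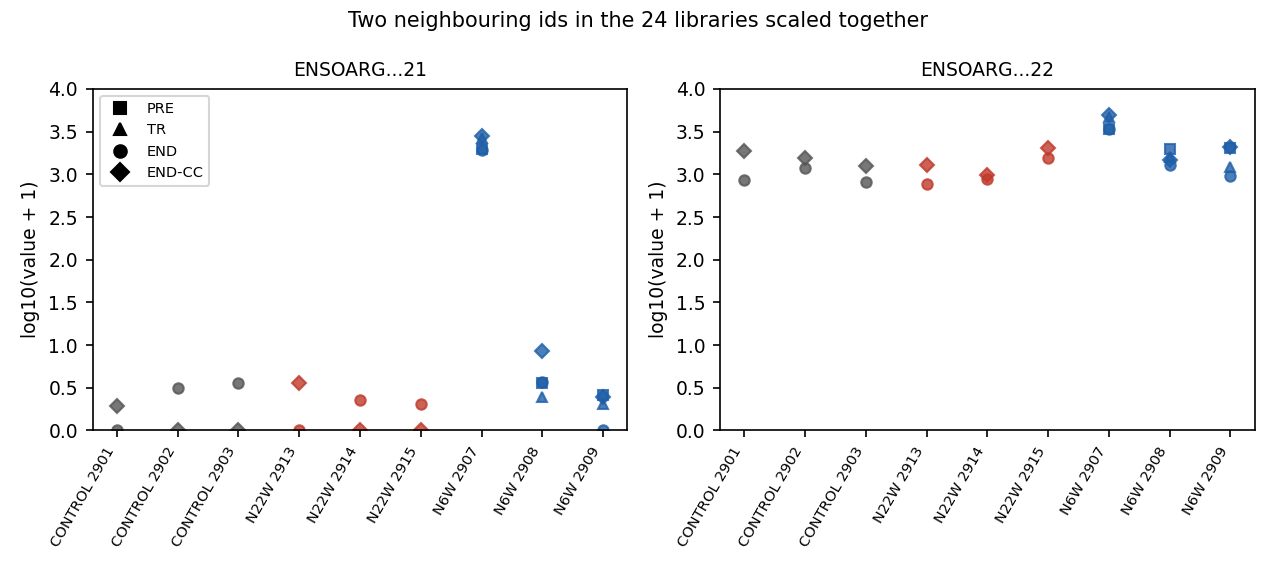
Id 21 (left) and id 22 (right) in the 24 libraries scaled together, as log10(value + 1), by animal. Colours give the arm and symbols the biopsy. Animal 2907 has 1930 to 2841 normalized reads of id 21 where the other libraries have at most 7.43, and 3407 to 4977 of id 22 where they have 779 to 2100.

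As a share of all summed values, the block took 2.84 to 6.46% in the 12-library set and 0.490 to 1.40% in the other. Id 16 made up most of the latter: with it left out, the median of the 24 libraries was 0.0971%. The 10 members outside the 27 that were at 0 or far lower in the 24-library set held 36.6 to 55.2% of the block in the 12-library set. In the other they held 98.6 to 99.95%. A share of a library is relative, and the most abundant id of all, which is no member, took 22.5 to 37.2% of each library. In whole muscle, fewer cells of a type and less RNA per cell cannot be told apart.

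**Figure D3:**
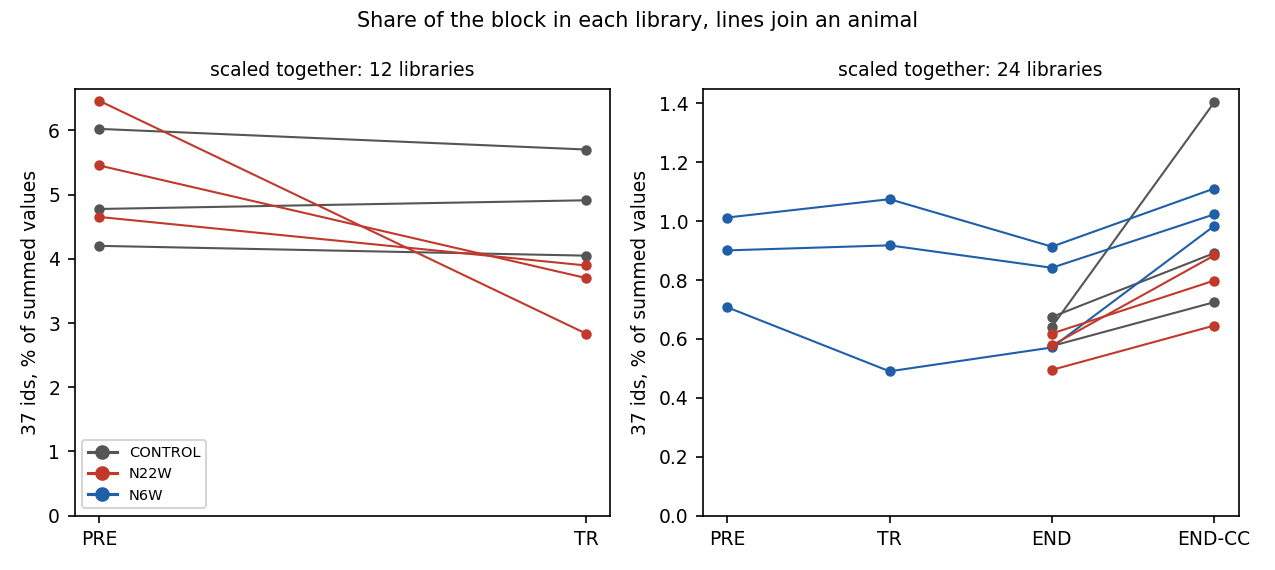
Share of the 37 ids in the summed values of each library, in percent, for the 12 libraries scaled together (left) and the other 24 (right). Lines join the libraries of an animal and colours give the arm. Left, the 3 N22W animals go down from 4.65 to 6.46% at PRE to 2.84 to 3.90% at TR. Right, all 9 animals have a lower share at END than at END-CC.

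Release was followed from PRE to TR. In CONTROL the block share was 5.002% ± 0.93 (SD, n = 3) at PRE and 4.89% ± 0.83 at TR. The TR share was 1.03, 0.964 and 0.947 times the PRE share in animals 2901, 2902 and 2903. Of the 37 members, 14 were lower and 2 higher at TR in all 3 animals, and the share of all ids doing so is not given. For 3 members all 3 TR values lay below all 3 PRE values, and for 1 member they lay above. The former held for 17.0% of the ids with a median of at least 0.5 over all 36 libraries. Those ids hold only some of the members. Id 16 had 848300, 636700 and 849000 normalized reads at PRE and 687400, 466400 and 489500 at TR, in the same order of animals. It was lower at TR in each animal, and the groups overlapped.

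No member passed the test in CONTROL. Changes were fitted with limma on log2(value + 1) with the animal as a block, and called at a Benjamini-Hochberg adjusted p below 0.05 over all ids tested. Over all 36 libraries 16 members had a median of at least 0.5 and entered the test, and 0 of the 16 were called, where 11.2% of the 16417 ids tested were. The other 21 members missed that minimum because they are at or near 0 in the 24-library set. So the 12 libraries were also fitted alone, where all 37 members entered. There 0 of 37 were called, against 7.32% of the 17369 ids tested. DESeq2 and edgeR on the recovered reads also called 0 of the 16, and limma gave 0 of the 16 and 1 of the 37 an unadjusted p below 0.05.

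The median log2 change of the 37 members was −0.30, and that of all ids tested was −0.06. This direction depended on scaling. With the same total given to each library, the median of all ids moved to 0.26 and that of the members to 0.02, and 21 of 37 members were then higher, against 5 of 37 before. Relative to all ids, the median of the 16 members was −0.27 with the authors' factors and −0.26 with equal totals. The member nearest to a call was id 25, at a protein place, chosen after its values were seen. It had 23480, 19640 and 22100 at PRE and 12950, 11700 and 13010 at TR, so the groups did not overlap. Its log2 change was −0.79 ± 0.25 (SE), with a limma adjusted p of 0.0837 in the 12 libraries.

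In N22W, under nandrolone from release on, the block share was lower at TR than at PRE in each animal. It was 5.52% ± 0.91 (SD, n = 3) at PRE and 3.48% ± 0.56 at TR, and the groups did not overlap. The TR share was 0.439, 0.838 and 0.679 times the PRE share in 2913, 2914 and 2915. With the most abundant id of all left out of the total, the shares went from 8.61, 6.31 and 7.33% to 3.89, 5.81 and 4.88%, so they were again lower in each animal.

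Of the 16 members in the fit of all libraries, 5 fell and none rose: ids 2, 4, 33, 34 and 37. Over all ids tested 16.8% were called, and 11.6% were called lower. In the 12 libraries alone 12 of 37 members fell and none rose (ids 2, 5, 6, 11, 18, 23, 25, 27, 28, 34, 35 and 37), where 12.3% of all ids were called and 7.84% called lower. Ids 2, 34 and 37 passed in both fits. All 37 members had a negative log2 change, with a median of −0.86 and a range of −1.50 to −0.33, against a median of −0.03 over all ids. They stayed negative with TMM factors and with equal totals, where the median of the members was −0.59 and that of all ids 0.23. For 21 of the 37 members, all 3 TR values lay below all 3 PRE values. This held for 18.2% of the ids with a median of at least 0.5 over all 36 libraries. Only 16 of the 37 members are among those ids, so the 2 figures rest on unlike sets of ids.

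The members at rRNA places both fell in the fit of all libraries. Id 2 had 105900, 94260 and 75910 normalized reads at PRE in 2913, 2914 and 2915, and 32700, 57560 and 35990 at TR. Id 4 had 851100, 573300 and 584600 at PRE and 218100, 408300 and 313500 at TR. Neither overlapped between the time points. The log2 changes were −1.16 ± 0.32 (SE, limma adjusted p 0.0153) and −1.12 ± 0.28 (adjusted p 0.0091). The SE of that fit draws on the spread in both sets, and id 4 has only 18.6 to 70.4 normalized reads in the other. In the 12 libraries alone id 4 did not pass, with an SE of 0.55 and a limma adjusted p of 0.204. Id 2 had a limma adjusted p of 0.0271 there.

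Ids 34 and 37 are at tRNA places and fell the most of the 5. Id 37 went from 214.8, 135.1 and 246.4 at PRE to 36.7, 114.6 and 91.1 at TR. Id 34 went from 27.4, 38.8 and 64.4 to 8.43, 22.04 and 21.4. Every TR value lay below every PRE value for both, although the drop of id 37 in 2914 was small. The log2 changes were −1.39 ± 0.33 for id 37 (limma adjusted p 0.00687) and −1.31 ± 0.30 for id 34 (adjusted p 0.00531).

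Id 33, at a protein place, was called in the fit of all libraries but not in the 12 libraries alone. It had 869.9, 650.9 and 1329 at PRE and 310, 794.4 and 561.1 at TR, so it was higher at TR in 2914, and the groups overlapped. Its log2 change was −0.81 ± 0.27 (limma adjusted p 0.0434). With TMM factors it was not called, and neither DESeq2 nor edgeR on recovered reads called it.

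Among the members at or near 0 in the other set, id 11 and id 25 had the largest called changes. Id 11, at a tRNA place, went from 44.2, 24.7 and 38.4 to 10.8, 12.1 and 12.1, a log2 change of −1.50 ± 0.30 (limma adjusted p 0.0160). Id 25 went from 22660, 15140 and 21010 to 5616, 11580 and 8676, a log2 change of −1.22 ± 0.25 (limma adjusted p 0.0178). Both had no overlap between PRE and TR. Id 16, the most abundant, went from 876800, 610200 and 823200 to 337000, 549500 and 411300. Its log2 change of −0.84 ± 0.34 did not pass (limma adjusted p 0.0860, and 0.381 in the 12 libraries alone).

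The animals of N22W did not move alike. In 2913, 36 of the 36 members above 3 reads in both libraries were lower at TR, with a median ratio of 0.376, and in 2915 all 35 of 35 were, with a median of 0.472. In 2914, 20 of 35 were lower and 15 higher, with a median of 0.938. Without 2913, or without 2915, no member was called in either fit. Without 2914, 8 of 16 members were called in the fit of all libraries and 27 of 37 in the 12 libraries alone. The count of called members thus changed with the animal left out, and each of these fits has fewer animals. The share of all ids called is not given for the fits that leave out an animal, so these counts are not set against it.

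**Figure D4:**
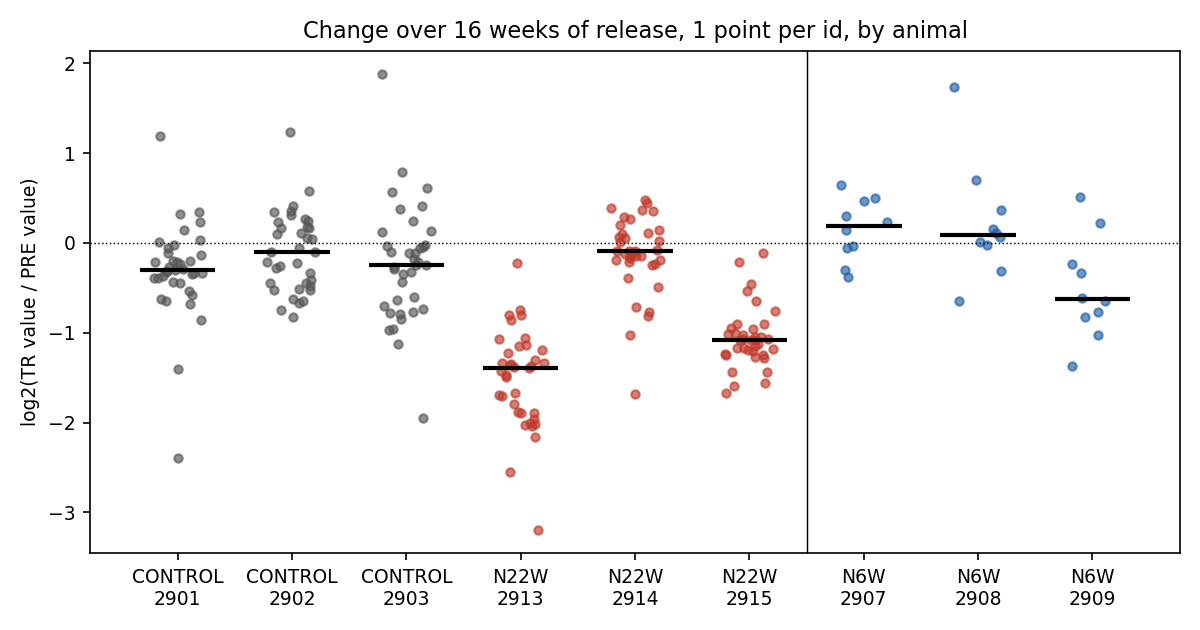
Log2 of the TR value over the PRE value for members above 0 in both libraries, by animal. CONTROL and N22W show all such members, and N6W shows only ids 16, 17, 22 and 31 to 37. Points are ids, bars are medians over ids and the dotted line marks no change. CONTROL and N22W belong to the 12 libraries scaled together and N6W, right of the vertical line, to the other 24. The points of 2913 and 2915 all lie below 0, and those of 2914 lie on both sides.

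Whether release changed the block differently under nandrolone was asked as the difference between the changes of N22W and CONTROL. No member passed: 0 of 16 in the fit of all libraries and 0 of 37 in the 12 libraries alone, where 0.0% of all ids were called in either. DESeq2 and edgeR also called 0 of the 16 members, against 27 and 11 of all ids. Of the 16, ids 4, 34 and 37 had an unadjusted p below 0.05. Their differences were −1.01 ± 0.40, −1.05 ± 0.42 and −1.02 ± 0.47 (SE), with limma adjusted p values of 0.651, 0.658 and 0.724. The 12 libraries alone pointed in part to other members. There id 4 had an unadjusted limma p of 0.224. Members below 0.05 there included ids 5, 6 and 11, with differences of −1.12, −0.74 and −1.75. Their unadjusted limma p values were 0.0179, 0.0311 and 0.00198, and the adjusted ones 0.666, 0.717 and 0.370. The median difference of the 16 members was −0.52, and that of all ids −0.01. The N22W ratios of block shares, 0.439 to 0.838, all lay below those of CONTROL, 0.947 to 1.03.

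N6W gives a further release without drug, in the other set. Its block share was 0.873% ± 0.154 (SD, n = 3) at PRE and 0.827% ± 0.302 at TR. The TR share was 1.02, 1.06 and 0.693 times the PRE share in 2907, 2908 and 2909, so 1 drug-free animal lay within the N22W range. Of the 16 members in the fit of all libraries 0 were called, against 6.98% of all ids. One of the 16, id 6, entered through its values in the 12-library set and has 14 reads in the 24 libraries together. In the 24 libraries alone 15 members entered, without id 6, and 0 were called, against 5.28% of all ids. Limma gave 1 member an unadjusted p below 0.05 in either fit, id 6 and id 37, and DESeq2 and edgeR called 0. Id 16 had 139800, 163500 and 115300 at PRE and 164400, 164800 and 65280 at TR. It was higher at TR in 2907 and 2908 and lower in 2909. Id 37 was lower in each animal, from 152.8, 202.2 and 96.9 to 117, 129.1 and 47.6, with a log2 change of −0.68 and a limma adjusted p of 0.211 (0.0728 in the 24 libraries alone). The difference between the release changes of N6W and CONTROL had 0 of 16 members called and 0.0% of all ids, though 6 of the 16 (ids 2, 4, 6, 19, 21 and 23) have medians in the 24-library set of at most 0.0849% of those in the other. None of the 16 had an unadjusted p below 0.05, and DESeq2 and edgeR called none.

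Repair under nandrolone, from TR to END, can be followed within a set only in N6W. The block share at END was 0.775% ± 0.180 (SD, n = 3). None of the 16 members was called, against 0.0853% of all ids, nor any of the 15 in the 24 libraries alone, against 0.0498%, and DESeq2 and edgeR called none of them either. Ids 17, 34 and 36, all at tRNA places, had an unadjusted p below 0.05, with log2 changes of −0.83, −1.12 and −1.10. The lowest limma adjusted p among them was 0.175, for id 34.

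Over the whole course in N6W, from PRE to END, ids 34 and 37 fell, 2 of 16 members, and none rose. Over all ids 6.19% were called, and 3.03% called lower. Id 34 went from 55.7, 47.0 and 43.6 normalized reads at PRE in 2907, 2908 and 2909 to 23.6, 13.7 and 10.6 at END, a log2 change of −1.62 ± 0.30 (limma adjusted p 0.00263). Id 37 went from 152.8, 202.2 and 96.9 to 69.0, 88.9 and 35.8, a log2 change of −1.24 ± 0.33 (limma adjusted p 0.0261). For both ids every END value lay below every PRE value. Both also passed in the 24 libraries alone, where 5.6% of all ids were called and 3.0% called lower. With any 1 animal left out, 1 member was called in the fit of all libraries and 2 in the 24 alone.

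The other members of N6W did not pass over that course. The median log2 change of the 15 members in the 24 libraries alone was −0.45, against 0.02 for all ids, and the block share at END was 0.934, 0.902 and 0.807 times that at PRE. On the unoperated side, END-CC against PRE, 0 of 16 members were called, against 8.18% of all ids, and 0 of 15 in the 24 libraries alone, against 6.19%. DESeq2 and edgeR called 0 as well, and edgeR gave 1 member an unadjusted p below 0.05 where the others gave 0. There the block share was 1.14, 1.10 and 1.39 times that at PRE, higher in each of the 3 animals. END and END-CC of N6W are compared here with the same PRE libraries.

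The operated muscle was then set against the unoperated side of the same animal on the same occasion. The block share was lower on the operated side in 9 of 9 animals. The END share was 0.457, 0.795 and 0.757 times the END-CC share in CONTROL, 0.775, 0.767 and 0.654 in N22W, and 0.823, 0.822 and 0.581 in N6W. In CONTROL the share was 0.631% ± 0.050 (SD, n = 3) at END and 1.01% ± 0.35 at END-CC. In N22W it was 0.564% ± 0.063 and 0.776% ± 0.121, and in N6W 0.775% ± 0.180 and 1.04% ± 0.07. END and END-CC did not overlap within any of the 3 arms.

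Over the 9 animals, a comparison added after seeing the data, 7 of 16 members fell on the operated side and none rose: ids 2, 16, 22, 33, 34, 35 and 37. Over all ids 38.8% were called, and 18.5% called lower. The same 7 members were called in the 24 libraries alone, of 15 tested, where 36.9% of all ids were called and 18.0% called lower. Ids 16, 22, 33, 34, 35 and 37 were lower in 9 of 9 animals and id 2 in 8 of 9. The share of all ids lower in 9 of 9 animals is not given, so this count is not set against it. In those libraries, equal totals moved the median of all ids from 0.06 to 0.25 and that of the 15 members from −0.43 to −0.25, with 7 of 15 called again.

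Id 37 had the largest change. It had a lowest, median and highest value of 90.8, 142.1 and 175.8 at END-CC and of 35.8, 68.0 and 91.7 at END. The 2 ranges met only at their ends. The log2 change was −1.07 ± 0.19 (limma adjusted p 0.000212), and the ratio of END to END-CC was 0.243 to 0.635.

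Id 34 ran from 17.2 to 52.0 with a median of 30.3 at END-CC, and from 10.6 to 33.6 with a median of 14.1 at END. The ranges overlapped, and the value was lower at END within each animal. Its log2 change was −0.78 ± 0.17 (limma adjusted p 0.00126).

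Id 16, which holds most of the block in these libraries, ran from 115300 to 258600 with a median of 167800 at END-CC. At END it ran from 70600 to 161300 with a median of 92980. Its log2 change was −0.74 ± 0.19 (limma adjusted p 0.00465), and the ratio was lowest in 2901 and 2909, at 0.346 and 0.369, and 0.583 to 0.805 in the others.

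Id 35 had medians of 14220 at END-CC and 9274 at END, and id 33 had medians of 688.8 and 465.4. Id 22 had medians of 1542 and 954.1, with 2907 high on both sides. Their log2 changes were −0.57 ± 0.16, −0.60 ± 0.16 and −0.59 ± 0.15. The limma adjusted p values were 0.00712, 0.00473 and 0.00336. Id 2 had medians of 56.9 and 30.8 and a log2 change of −0.71 ± 0.18 (limma adjusted p 0.00446).

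Id 32, among the 5 most abundant members, did not pass. It ran from 1793 to 4114 at END-CC and from 1573 to 3393 at END, and was lower in 6 of 9 animals. Ids 31 and 36, at tRNA places, were lower in 3 and 4 of 9 animals, so the members with low values did not all move with the rest.

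**Figure D5:**
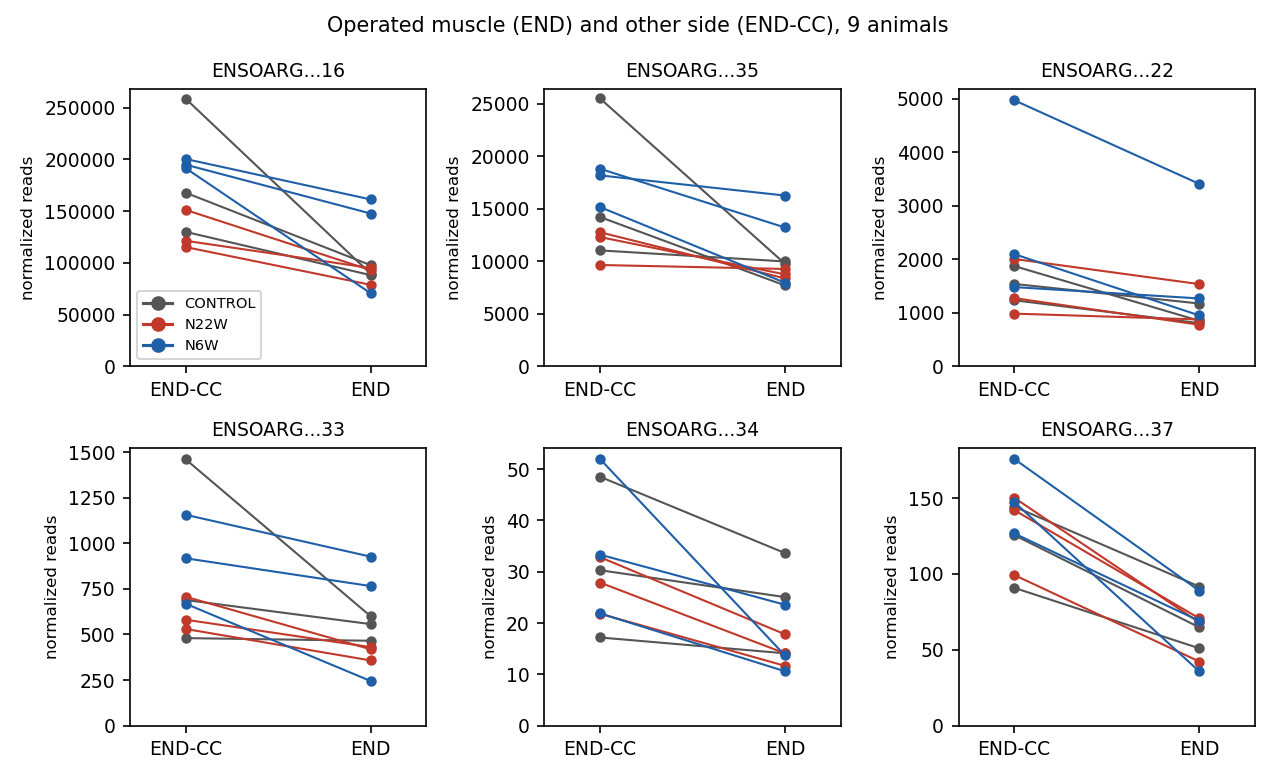
Normalized reads of the 6 members that were lower on the operated side in 9 of 9 animals, on the unoperated side (END-CC) and the operated side (END). Lines join the 2 biopsies of an animal and colours give the arm. Axes start at 0. All lines go down, and in id 37 the END values, 35.8 to 91.7, lie below all but the lowest END-CC value of 90.8.

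Within single arms the calls were fewer and less stable. In CONTROL 4 of 16 members fell (ids 2, 4, 16 and 35), against 19.4% of all ids called and 9.87% called lower. Id 16 had 258600, 130000 and 167800 at END-CC in 2901, 2902 and 2903 and 89490, 88160 and 97750 at END, with a log2 change of −0.96 ± 0.34 (limma adjusted p 0.0469). Id 35 had 25510, 11040 and 14220 at END-CC and 9768, 9987 and 7706 at END, with −0.80 ± 0.28 (limma adjusted p 0.0443). In both the groups did not overlap, and 2901 had the largest drop.

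Id 2 had 77.1, 50.3 and 80.8 normalized reads at END-CC and 27.4, 27.1 and 51.4 at END in CONTROL, with a log2 change of −0.99 ± 0.32 (limma adjusted p 0.0329). Id 4 had 70.4, 29.5 and 44.4 at END-CC and 18.7, 27.1 and 29.7 at END, with −0.85 ± 0.28 (adjusted p 0.0361). In the 24 libraries alone, ids 22, 35 and 37 were called instead, 3 of 15, against 16.0% of all ids called and 8.22% called lower. Without 2901 or without 2903 no member was called in either fit, and without 2902 there were 2.

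In N6W ids 34 and 37 fell, 2 of 16, against 4.12% of all ids called and 1.58% called lower. Id 34 had 33.3, 52.0 and 21.9 at END-CC in 2907, 2908 and 2909 and 23.6, 13.7 and 10.6 at END, with a log2 change of −1.11 ± 0.30 (limma adjusted p 0.0410). Id 37 had 126.7, 175.8 and 147.4 and 69.0, 88.9 and 35.8, with −1.28 ± 0.33 (limma adjusted p 0.0347). Id 37 did not overlap between the sides, and id 34 did. In the 24 libraries alone only id 37 was called, against 1.27% of all ids called and 0.236% called lower. Without 2907 or 2909 none was called, and without 2908 there was 1.

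In N22W 0 of 16 members were called, against 1.6% of all ids. Limma gave 3 of the 16 an unadjusted p below 0.05, edgeR called 0 and DESeq2 called 1. Id 37 had 150.2, 99.3 and 142.1 at END-CC in 2913, 2914 and 2915 and 68.0, 42.3 and 70.7 at END, with no overlap. Its log2 change was −1.11 ± 0.33 (limma adjusted p 0.0788), and in the 24 libraries alone it was called (adjusted p 0.0431), where 0.454% of all ids were called and 0.193% called lower. So id 37 was lower in all 9 animals, with log2 changes of −0.81, −1.11 and −1.28 in CONTROL, N22W and N6W.

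The side difference was also compared between arms. No member passed for N22W minus CONTROL or for N6W minus CONTROL, 0 of 16 each and 0 of 15 each in the 24 libraries alone, and 0.0% of all ids were called in either fit. DESeq2 and edgeR called 0 members in both, and limma gave 1 member of 16 an unadjusted p below 0.05 in each. These were id 4, with a difference of 0.92 for N22W, and id 21, with −1.86 for N6W. Id 21 had 7.43 and 2.74 normalized reads at END-CC and END in 2908 and 1.46 and 0 in 2909, so its value in N6W rests in part on single reads. In CONTROL it had 0.951, 0 and 0 at END-CC and 0, 2.17 and 2.64 at END, so that side rests on a few reads throughout.

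At END and at END-CC, arms were compared between animals, with 9 libraries a time point and no block. In each of the 4 comparisons of a nandrolone arm with CONTROL, 0 of 16 members were called and 0.0% of all ids. The same 9 libraries gave 0 of 15 and 0.0% when the minimum median was taken over the 24-library set. DESeq2 and edgeR called 0 members in each. Limma gave an unadjusted p below 0.05 to 0 members at END and 4 at END-CC for N22W, and to 1 at END and 1 at END-CC for N6W. The 4 were ids 2, 4, 23 and 36, all lower in N22W, with limma adjusted p values of 0.403 to 0.534. For N6W the member at END was id 32 (limma adjusted p 0.562) and that at END-CC was id 21 (0.693). At END-CC id 21 had 2841 normalized reads in 2907 but 7.43 and 1.46 in 2908 and 2909. At END-CC id 16 had 185467 ± 66095 normalized reads in CONTROL, 129300 ± 19210 in N22W and 195600 ± 4491 in N6W (SD, n = 3 each). The widest spread was in CONTROL, where 2901 had 258600.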

How the data were processed

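The deposited values are a signal per Ensembl gene id and library for 25197 ids in 36 libraries, with no unit stated. Within a library they are whole multiples of 1 step of 0.512 to 1.62, so the deposited signal was read as reads divided by 1 size factor. Of values up to 100 reads, at least 100.0% per library lay within 0.1 of a whole number. Per the submitters' processing notes, the assembly was Oar_v3.1 and the tools were R 3.0.2 and STAR 2.3.0e. For counting, tool and annotation are not given in the sources used. Stranded libraries were made from total RNA after human-probe rRNA depletion, per the labels.

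Because the values are no whole counts, changes were tested with limma 3.58.1 (R 4.3.3) on log2(value + 1). Ids entered with a median of at least 0.5 over all 36 libraries, also where the fit held fewer libraries. For the libraries scaled together the median was taken over that set. Fold changes on this scale understate those of low ids. The animal was a block in every fit of changes within animals, which used all 36 libraries. Levels were compared within a set, but the SE and p of such a fit draw on the spread in both sets. Fits of the libraries scaled together, and the side difference over 9 animals, were added after seeing the data, as 21 members miss the minimum over all 36. P values are two-sided and adjusted by Benjamini-Hochberg over all ids of a comparison, with 0.05 as the threshold; 17 comparisons were planned. edgeR 4.0.16 and DESeq2 1.42.0 on recovered reads, other scalings, pseudocount and filter, the fit without the block, and leaving out each animal were the alternatives. The fits were tested on simulated data.

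The animals pair the libraries, since the labels give 4 libraries per animal number. Deviations from group means correlated at a mean r of 0.24 between libraries of an animal (n = 30 pairs) and of −0.03 between animals. The libraries of a group are different animals, and pairs of libraries were checked for copies.

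Members and lists were chosen with earlier results of these data known. All 37 members are accounted for. Those with values are the 5 with the highest median, members called in a comparison (up to 5), the one with the most variable share, and ids 38 and 39. Other members given with values were chosen after their values were seen. Planned lists of nuclear genes of the respiratory chain and of cell type markers could not be used, because 0 of the 35057 entries of the reference table carry an Ensembl id.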

Additional observations from a re-analysis of the deposited data

Results flagged for a closer look

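In the ratio of END to END-CC over the 9 animals, a single animal stood apart at 2 members. At id 34 the gap between animal 2908, which had the lowest ratio (0.263), and the next animal was 0.533 of the whole range on the log2 scale. At id 37 the gap between animal 2909, also the lowest (0.243), and the next was 0.585 of the range. Both exceed 0.493, the limit by Dixon's test for 9 values. Of 8 groups tested in this way chance would pass about 1 in 20, and no cause was tested.

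At id 31, a tRNA place, the change from PRE to TR was downward in every N22W animal and upward in every N6W animal. The ratios were 0.476, 0.313 and 0.474 in N22W and 1.11, 1.29 and 1.42 in N6W, and the mean log2 changes differed by −1.61 (N22W minus N6W). The arms lie in different sets, values were 0.828 to 14.5 normalized reads, near the level of single reads, and the difference was not tested.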

How the results depend on the processing

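Counts of called members within 1 arm moved with the processing, and the cause was not tested. With no filter all 37 members entered the fits of changes within animals. Shares of all ids called are not given for these alternatives, so the counts are not set against them. For N22W release (5 of 16), there were 16 of 37 with no filter and 2 without the animal as replicate block. There were 0 with only the libraries compared and 0 to 8 leaving out 1 animal. In the 12 libraries alone there were 12, with 9 by TMM factors, 3 without the block and 0 to 27 leaving out 1 animal. With no filter, CONTROL release had 1 and its difference from N22W had 2 in place of 0. For END against PRE in N6W (2), there were 0 without the block in either fit, 0 with only the libraries compared, and 1 whichever animal was left out. For the side difference in CONTROL (4), there was 1 with no filter, 1 with equal totals in either fit, 1 with equal totals outside the block, 0 without the block in either fit, and 0 to 2 leaving out 1 animal. In N22W (0), there was 1 by DESeq2 and 1 in the 24 libraries alone, by TMM factors and equal totals too, and 2 with only the libraries compared. In N6W (2), there were 0 with no filter, 0 without the block in either fit, 0 with only the libraries compared and 0 with equal totals outside the block. There was 1 with equal totals and 1 in the 24 libraries alone, by TMM factors and equal totals too, and 0 to 1 leaving out 1 animal. Over 9 animals the side difference (7) gave 7 to 8, and 6 to 8 in the 24 libraries alone, leaving out 1 animal. Of the calls of single members, repeated under each alternative, 328 were kept, 136 fell short of the threshold and 0 reversed. The kept ones came mostly from the comparison over 9 animals. There each call was kept under 29 to 31 alternatives and fell short under 0 to 2. Within 1 arm each call was kept under 3 to 16 and fell short under 3 to 16. The median block share was 4.72% in the 12 libraries and 0.820% in the 24. It was 6.26 and 1.22% without the most abundant id outside the block, and 2.56 and 0.0971% without id 16. Comparisons between PRE or TR and END in CONTROL and N22W were not made, since they cross sets. Low members (ids 1, 3, 30 and 31) rest on few reads per library.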
